A study of Gloeophyllum trabeum with 9 samples.

Results

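Expression of 6 terpene synthase (TS) genes and 2 polyketide synthase (PKS) genes of the brown rot fungus Gloeophyllum trabeum was followed across 3 carbon sources. The TS genes were Glotr_116237, Glotr_131990, Glotr_79917, Glotr_103889, Glotr_64172 and Glotr_117331, and the PKS genes were Glotr_91951 (PKS4) and Glotr_116317 (PKS1), named by the number of their gene model in the genome. They are 8 of the 14 TS and PKS genes that the study lists, and 8 of the 11846 gene models in the expression table. Mycelium of strain NBRC6430 was grown in shaken liquid cultures on wood flour of Japanese cedar (Cryptomeria japonica) for 5 days, on microcrystalline cellulose for 5 days or on glucose for 3 days. Each carbon source had 3 libraries, described as biological replicates, and there was no genetic change or other treatment of the fungus in any group. The paper states that the cellulose and the cedar flour had been nanofibrillated by aqueous counter collision. Carbon source, this processing and culture age cannot be told apart between either substrate and glucose, whereas cedar and cellulose cultures had the same age. RNA from whole mycelium also cannot tell less RNA per cell from fewer cells that express a gene.

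The 8 genes were chosen by their differences from glucose, since each is marked as changed on cellulose, on cedar or on both in the study's tables. Their differences from glucose are therefore described below without a test. The marks rest on a ratio of mean expression of at least 2 or at most 0.5 together with a q-value. Among the 8, closest inside that limit was Glotr_131990 on cedar, with a ratio of cedar to glucose of 2.71. Just outside it were Glotr_79917 on cedar, with 1.99, and the unmarked gene Glotr_103847 (PKS2) on cedar, with 1.90. The TS genes Glotr_47645 and Glotr_48290 also carry a mark, for lower expression on cellulose, and were not among the 8, although the ratio of cellulose to glucose of Glotr_48290, 0.405, was nearer to the limit than that of any of the 8 inside it.

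Terpene synthases fold and cyclize isoprenyl diphosphates, such as farnesyl diphosphate, into the carbon skeletons of terpenoids, which cytochrome P450 enzymes often oxidize further. Polyketide synthases are large enzymes that build carbon chains from acyl-CoA units, and the aromatic polyketides of fungi include quinones and phenolic compounds. In fungi the genes for such a pathway often lie side by side in the genome. Brown rot fungi open the wood cell wall with Fenton chemistry, in which hydroxyl radicals form from iron and hydrogen peroxide, and secondary metabolites that bind or reduce iron have been discussed as partners of that reaction.

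Expression is given as the normalized TPM of the deposited table, an abundance per transcript length and per library that the authors rescaled between libraries. The columns summed to between 709862 and 899473 TPM on cedar, between 1574621 and 1680448 on cellulose and between 678148 and 771024 on glucose, so an equal-total scaling was tried beside the deposited one. Read counts per gene are not part of these values, so the depth behind a single gene is unknown and its error is the spread of 3 libraries. Log2 differences are those of log2(TPM + 0.5) with the standard error (SE) of the fit, and ratios are ratios of mean TPM. All 8 genes passed the filter on low values in each comparison.

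In the first 4 TS genes, expression was higher on both substrates than on glucose in every library. The share of all gene models without overlap with glucose is not given here, so no lack of overlap below can be called unusual. Glotr_116237 had 39.2, 27.4 and 48.8 TPM on cedar, 231.7, 97.5 and 59.2 TPM on cellulose, and 5.40, 6.0 and 9.27 TPM on glucose. No library on either substrate overlapped the glucose libraries, and the 3 cellulose libraries all lay above the 3 cedar libraries. Set against glucose, 116237's ratio was 5.59 on cedar and 18.8 on cellulose, with log2 differences of 2.40 (SE 0.26) and 3.94 (SE 0.48). Its cellulose libraries spread widely, with a mean of 129 ± 90.6 TPM (SD, n = 3), and replicate 3 was the lowest of them. Without cellulose replicate 1, the highest, the ratio of cellulose to glucose was 11.4. The gene model spans 5484 bp in the RefSeq annotation, against 1118 to 1649 bp for the other 5 TS genes.

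Glotr_103889 was the most abundant of the 8 on both substrates, with 1222, 255 and 939 TPM on cedar, 2508, 2083 and 512 TPM on cellulose, and 186, 162 and 103 TPM on glucose. The lowest library on each substrate was still above the highest on glucose, but cedar replicate 2 and cellulose replicate 3 were each far below the other libraries of their group. Set against glucose, 103889's ratio was 5.37 on cedar and 11.3 on cellulose, with log2 differences of 2.19 (SE 0.57) and 3.25 (SE 0.61). Without cellulose replicate 3, the ratio of cellulose to glucose was 15.3. By mean level it ranked 55 among the 11846 gene models on cedar, 59 on cellulose and 545 on glucose.

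The other 2 TS genes of this direction were expressed at a low level. Glotr_131990 had 8.46, 6.32 and 7.48 TPM on cedar, 13.7, 6.35 and 19.9 TPM on cellulose, and 2.82, 2.40 and 3.00 TPM on glucose. Glotr_79917 had 3.85, 5.83 and 4.34 TPM on cedar, 9.21, 6.66 and 8.62 TPM on cellulose, and 2.09, 1.60 and 3.36 TPM on glucose. Both were above their glucose libraries in all 6 substrate libraries, and for Glotr_79917 the gap was narrow, at 3.85 TPM for the lowest cedar library and 3.36 TPM for the highest glucose library. The log2 differences from glucose were 1.28 (SE 0.14) on cedar and 1.96 (SE 0.38) on cellulose for Glotr_131990, and 0.89 (SE 0.25) and 1.64 (SE 0.25) for Glotr_79917. In all 4 of these TS genes, the differences from glucose kept their sign in each scaling, and with equal totals, which moved the median of all gene models to −1.09 on cellulose and −0.12 on cedar, they were 0.61 to 2.81 on cellulose and 0.76 to 2.24 on cedar.

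**Figure D1:**
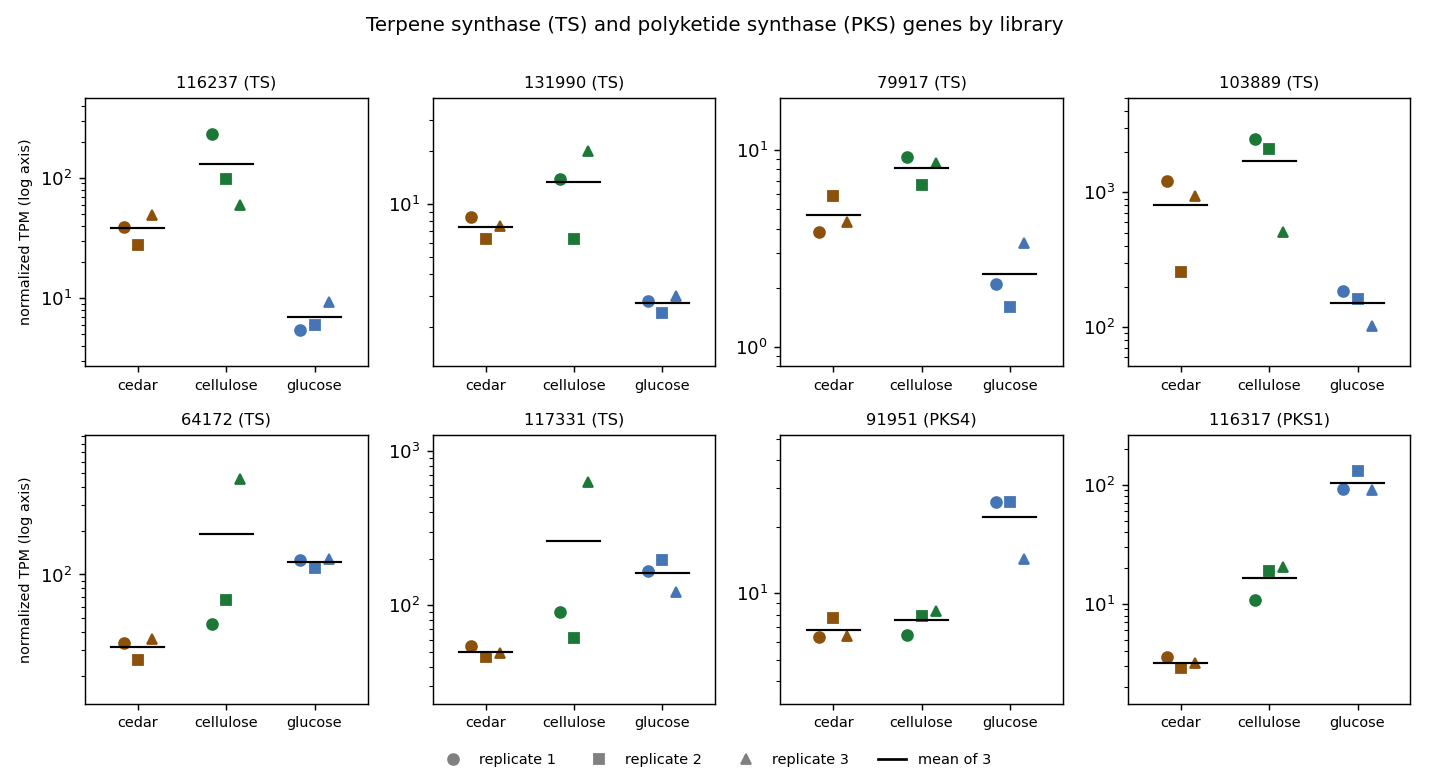
Normalized TPM (log axis, a separate range in each panel) of the 6 TS and 2 PKS genes in the 3 cedar, 3 cellulose and 3 glucose libraries, with 1 symbol for each library and a line at the mean of each group. In Glotr_116237, Glotr_131990, Glotr_79917 and Glotr_103889 the substrate libraries lie above glucose, in Glotr_64172 and Glotr_117331 cellulose replicate 3 stands at 457 and 632 TPM above all others, and in Glotr_91951 and Glotr_116317 the glucose libraries are highest.

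The remaining 2 TS genes were lower on cedar than on glucose and split on cellulose. Glotr_64172 had 33.9, 25.7 and 35.8 TPM on cedar, 45.7, 67.1 and 457 TPM on cellulose, and 125, 111 and 128 TPM on glucose. Glotr_117331 had 54.4, 46.2 and 48.8 TPM on cedar, 90.9, 61.3 and 632 TPM on cellulose, and 168, 198 and 121 TPM on glucose. In both genes, cellulose replicates 1 and 2 lay between the cedar and the glucose libraries, and cellulose replicate 3 was above every other library. On cedar the ratio to glucose was 0.262 for Glotr_64172 and 0.307 for Glotr_117331, with log2 differences of −1.93 (SE 0.14) and −1.67 (SE 0.19).

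On cellulose the direction of Glotr_64172 and Glotr_117331 depended on replicate 3 and on the scale. The ratio of cellulose to glucose was 1.56 for Glotr_64172 and 1.61 for Glotr_117331, while the log2 differences were −0.11 (SE 0.80) and −0.06 (SE 0.82). Without cellulose replicate 3 the ratios were 0.465 and 0.469 and the log2 differences −1.12 (SE 0.18) and −1.09 (SE 0.26). Both log2 differences were above 0 without cellulose replicate 1 (0.53 and 0.31) and without cellulose replicate 2 (0.26 and 0.59), and that of Glotr_117331 was 0.09 without glucose replicate 2. With median-of-ratios scaling that of Glotr_117331 was 0.01, and with equal totals the 2 were −1.27 and −1.22. The ratio of Glotr_117331 to Glotr_64172 lay between 1.36 and 1.80 on cedar, 0.913 and 1.99 on cellulose and 0.946 and 1.78 on glucose, with cellulose replicate 3 inside that range. Within groups the 2 genes did not always move together. From cellulose replicate 1 to 2, Glotr_64172 went from 45.7 to 67.1 TPM and Glotr_117331 from 90.9 to 61.3 TPM. On glucose, replicate 2 was the lowest for Glotr_64172 and the highest for Glotr_117331, whereas on cedar it was the lowest for both. Among the 8 genes, the pair had the most alike pattern over the 9 libraries, with a root mean square difference of 0.37 in centred log2(TPM + 0.5). Both were high in cellulose replicate 3, at 6.81 and 6.95 times the higher of the other 2 cellulose libraries. Their likeness without that library was not tested.

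Both PKS genes were lower on both substrates than on glucose. Glotr_116317 (PKS1) had 3.58, 2.92 and 3.17 TPM on cedar, 10.8, 18.7 and 20.5 TPM on cellulose, and 92.4, 130 and 90.6 TPM on glucose. The 3 groups did not overlap, and 116317's mean stood at 3.09% of its glucose value on cedar and 16.0% on cellulose. The log2 differences from glucose, −4.80 (SE 0.16) on cedar and −2.64 (SE 0.27) on cellulose, put its cedar difference farthest from 0 of all those of the 8 genes.

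Glotr_91951 (PKS4) had 6.31, 7.68 and 6.42 TPM on cedar, 6.46, 7.86 and 8.26 TPM on cellulose, and 25.9, 26.0 and 14.3 TPM on glucose. The cedar and cellulose libraries overlapped, and even the low glucose replicate 3 lay above all 6. In these libraries 91951's mean was 30.8% of its glucose value on cedar and 34.1% on cellulose, with log2 differences of −1.58 (SE 0.24) and −1.45 (SE 0.25).

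**Figure D2:**
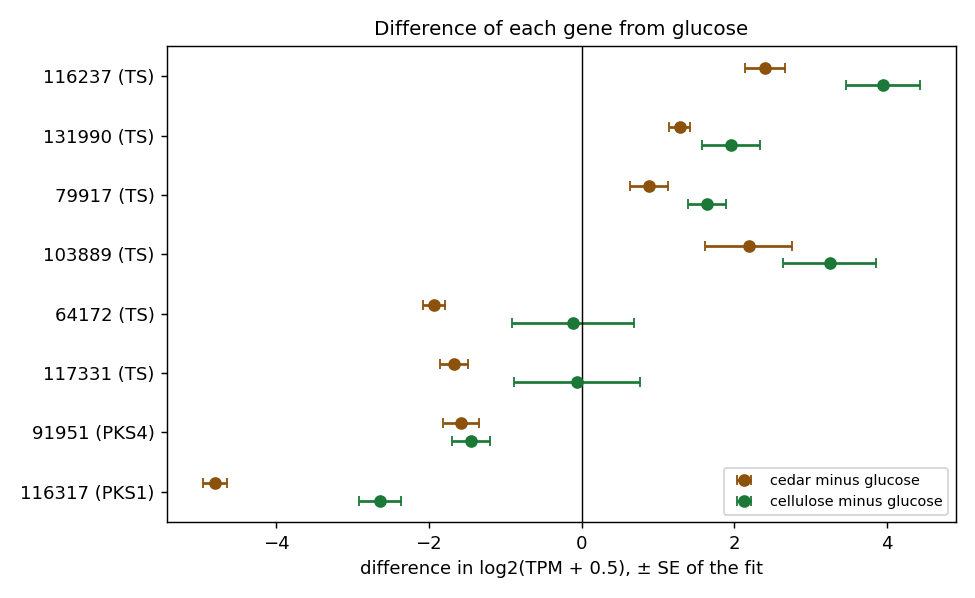
Difference of each gene from glucose in log2(TPM + 0.5) on cedar and on cellulose, with bars of 1 SE of the fit (3 libraries in each group). The first 4 TS genes lie right of 0 on both substrates, with cellulose farther out than cedar, both PKS genes lie left of 0, and the cellulose values of Glotr_64172 and Glotr_117331 have bars that span 0.

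Cedar and cellulose were compared directly with limma for the 4 genes whose mark is the same on both substrates, Glotr_116237, Glotr_131990, Glotr_91951 and Glotr_116317. A gene was called at a Benjamini-Hochberg adjusted p under 0.01, taken over all 10503 gene models tested, with a ratio of at least 2 or at most 0.5. Of these gene models, 10.7% were called higher on cedar than on cellulose and 5.95% lower. Scaled to the same total TPM, 4897 were higher and 141 lower, in place of 1124 and 625, and after quantile normalization 726 were higher and 653 lower. The median of all gene models moved by little in the deposited scaling, at 0.05, and stood at 0.91 with equal totals, so a difference under that scaling is to be read against 0.91.

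PKS1 was the only 1 of the 4 called. Glotr_116317 fell to 3.23 ± 0.34 TPM on cedar, against 16.7 ± 5.19 TPM on cellulose (SD, n = 3 each), with a log2 difference of −2.16 (SE 0.25, limma adjusted p = 0.00141). The cedar libraries were all below the cellulose libraries, and the difference stayed negative in each scaling, at −1.24 with equal totals. Over the alternatives its limma adjusted p ranged between 0.000205 and 0.0104, the upper end in the fit with the replicate number as a block, where the call was lost.

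The other 3 were not called. For Glotr_116237 the difference of cedar from cellulose was −1.55 (SE 0.49, limma adjusted p = 0.0415), and leaving out single libraries gave −1.99 to −1.01 with adjusted p between 0.00881 and 0.121. It passed 0.01 only without cellulose replicate 3, and it was smallest without cellulose replicate 1, where the ratio of cedar to cellulose was 0.491 in place of 0.297. For Glotr_131990 it was −0.68 (SE 0.38, limma adjusted p = 0.193), with cedar at 7.42 ± 1.07 and cellulose at 13.3 ± 6.79 TPM (SD, n = 3 each), and with equal totals it was 0.25. For Glotr_91951 it was −0.14 (SE 0.15, limma adjusted p = 0.492), and with equal totals 0.78. Over all alternatives the limma adjusted p of Glotr_91951 ranged from 0.00968 to 0.754, and on leaving out single libraries from 0.239 to 0.754. Both equal-total values lay below the median of 0.91 over all gene models. These p-values do not show that the 3 genes were alike on the 2 substrates.

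The remaining 4 TS genes are marked on 1 substrate only, which already uses the contrast of the substrates, so their values are a description. The log2 difference of cedar from cellulose was −0.75 (SE 0.19) for Glotr_79917, −1.06 (SE 0.79) for Glotr_103889, −1.82 (SE 0.80) for Glotr_64172 and −1.61 (SE 0.81) for Glotr_117331. The libraries of the 2 substrates overlapped only in Glotr_103889. The share of all gene models without overlap is not given here, so the lack of overlap cannot be called unusual. Leaving out single libraries gave −0.91 to −0.64 for Glotr_79917, −1.78 to −0.37 for Glotr_103889, −2.46 to −0.81 for Glotr_64172 and −2.26 to −0.58 for Glotr_117331. The value of Glotr_103889 was farthest from 0 without cellulose replicate 3 and nearest to 0 without cedar replicate 2, and for Glotr_64172 and Glotr_117331 it was nearest to 0 without cellulose replicate 3. In the order given first, the 4 differences were −1.08, −0.02, −1.48 and −1.14 after quantile normalization and 0.16, −0.08, −0.85 and −0.63 with equal totals, all 4 of the equal-total values below the median of 0.91.

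The order of the 8 genes by mean TPM changed with the carbon source. On cedar, Glotr_103889 led at 806 ± 497 TPM (SD, n = 3), followed by Glotr_117331 at 49.8 ± 4.23, Glotr_116237 at 38.5 ± 10.7 and Glotr_64172 at 31.8 ± 5.39, whose neighbours in the order overlapped. The 4 low genes were Glotr_131990, Glotr_91951, Glotr_79917 and last Glotr_116317, and only Glotr_131990 and Glotr_91951 overlapped. On cellulose the order was Glotr_103889, Glotr_117331, Glotr_64172, Glotr_116237, Glotr_116317, Glotr_131990, Glotr_79917 and Glotr_91951, and the only neighbours without overlap were Glotr_116237 and Glotr_116317. On glucose Glotr_117331 (162 ± 38.7), Glotr_103889 (150 ± 42.8), Glotr_64172 (121 ± 9.19) and Glotr_116317 (104 ± 22.1) formed an overlapping upper group. Below them stood Glotr_91951 at 22.1 ± 6.74, Glotr_116237 at 6.89 ± 2.08 and the overlapping pair of Glotr_131990 at 2.74 ± 0.31 and Glotr_79917 at 2.35 ± 0.91 TPM. PKS1 thus stood above 27.8% of all gene models on cedar, 65.4% on cellulose and 93.5% on glucose.

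The study lists 6 further genes of the 2 families, which show what the 8 were drawn from. Against glucose on cellulose, 2 of the 6 were called lower and 0 higher by limma (2 had an unadjusted p under 0.05), with a median log2 difference of −0.20. Among all gene models tested there, 13.9% were called lower and 10.4% higher, with a median of −0.09, and equal totals turned 1463 lower and 1093 higher calls into 5934 and 353. On cedar, 0 of the 6 were called against glucose (3 had an unadjusted p under 0.05), beside 15.7% of all gene models lower and 15.2% higher. Their median there was −0.08, and that of all gene models was 0.04. The 8 include every listed gene that the study marks on cedar, or as higher on cellulose. The counts of 0 among the other 6 were therefore largely set by that choice and are only a description.

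Of these, TS gene Glotr_47645 fell to 0.720, 1.53 and 1.17 TPM on cellulose, against 7.47, 4.66 and 4.51 TPM on glucose (log2 difference −1.88, SE 0.26, limma adjusted p = 0.00139). On cedar it had 3.76, 2.91 and 3.82 TPM, above every cellulose library, and it was the 1 gene of the 6 called between the substrates (log2 difference 1.31, SE 0.22, limma adjusted p = 0.00465). That call was lost without cedar replicate 1, without cedar replicate 2 and without cedar replicate 3, with adjusted p up to 0.0247, and also under quantile normalization and with the replicate block. TS gene Glotr_48290 fell on cellulose to 1.62 ± 0.20 TPM, against 3.99 ± 0.63 TPM on glucose (SD, n = 3 each; log2 difference −1.08, limma adjusted p = 0.00162), a call lost under quantile normalization (adjusted p = 0.0108).

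The 4 others were not called in any of the 3 comparisons. PKS2 (Glotr_103847) had 4.76 ± 0.17 TPM on cedar, 3.18 ± 0.81 on cellulose and 2.50 ± 0.16 on glucose, and on cedar it passed the adjusted p (0.000404, limma) but not the fold limit. PKS7 (Glotr_140669) had 5.49 ± 0.47 TPM on cedar, 3.21 ± 1.26 on cellulose and 4.86 ± 0.61 on glucose. TS gene Glotr_78472 stayed between 1.91 and 4.39 TPM in all 9 libraries. TS gene Glotr_117180 had 96.3, 38.7 and 82.0 TPM on cedar, 138, 161 and 52.0 TPM on cellulose, and 78.3, 72.7 and 76.4 TPM on glucose, so that cedar replicate 2 and cellulose replicate 3 were low, as they were in Glotr_103889.

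Beyond these lists, 5 gene models carry a polyketide synthase or synthetase name in the annotation used here. It covers 1734 of the 11846 gene models, so that no further one is named terpene synthase says little. Of the 5, only Glotr_9220 was matched to RefSeq. Whether these models are whole PKS genes or fragments was not tested. Glotr_8767 was at 0 in every library. Of the 4 tested, 2 were called lower and 1 higher on cellulose than on glucose, 3 lower and 0 higher on cedar than on glucose (3 had an unadjusted p under 0.05), and 2 lower and 0 higher on cedar than on cellulose (2 had an unadjusted p under 0.05), all with limma. Their median log2 differences were −2.02, −3.68 and −0.71, beside −0.09, 0.04 and 0.05 over all gene models tested.

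Gene models Glotr_11514 and Glotr_11868 had the PKS1 and PKS4 direction at a higher level. Glotr_11514 fell to 13.4 ± 0.74 TPM on cedar and 11.2 ± 3.95 TPM on cellulose, against 356 ± 68.9 TPM on glucose (SD, n = 3 each; log2 differences −4.67 and −4.97, limma adjusted p = 1.19e-06 and 3.22e-05). Glotr_11868 fell to 10.4 ± 1.12 TPM on cedar and 7.16 ± 3.89 TPM on cellulose, against 305 ± 44.7 TPM on glucose (log2 differences −4.80 and −5.45, limma adjusted p = 6.62e-07 and 7.49e-05). The ratio of Glotr_11868 to Glotr_11514 stayed between 0.444 and 0.915 in the 9 libraries, and whether the reads of similar sequences were divided between them cannot be seen from these values.

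Glotr_15151 was low on cedar only, with 66.0, 64.8 and 83.7 TPM on cedar, 712, 1442 and 658 TPM on cellulose, and 381, 630 and 413 TPM on glucose. It fell on cedar against both glucose (log2 difference −2.70, SE 0.21, limma adjusted p = 4.86e-05) and cellulose (−3.62, SE 0.32, adjusted p = 0.00079). Glotr_9220, named as a partial polyketide synthetase, was the only PKS-named model called higher on cellulose, at 65.0 ± 21.9 TPM against 26.3 ± 6.46 TPM on glucose (SD, n = 3 each; log2 difference 1.27, limma adjusted p = 0.00805). Leaving out any 1 of the 6 libraries removed that call, as did quantile normalization, and equal totals brought the adjusted p to 0.709. It was lower on cedar, at 18.9 ± 4.35 TPM, than on cellulose (log2 difference −1.73, limma adjusted p = 0.0035), a call lost without cedar replicate 1, without cedar replicate 3, without cellulose replicate 2, with equal totals and with the replicate block (adjusted p up to 0.0529).

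**Figure D3:**
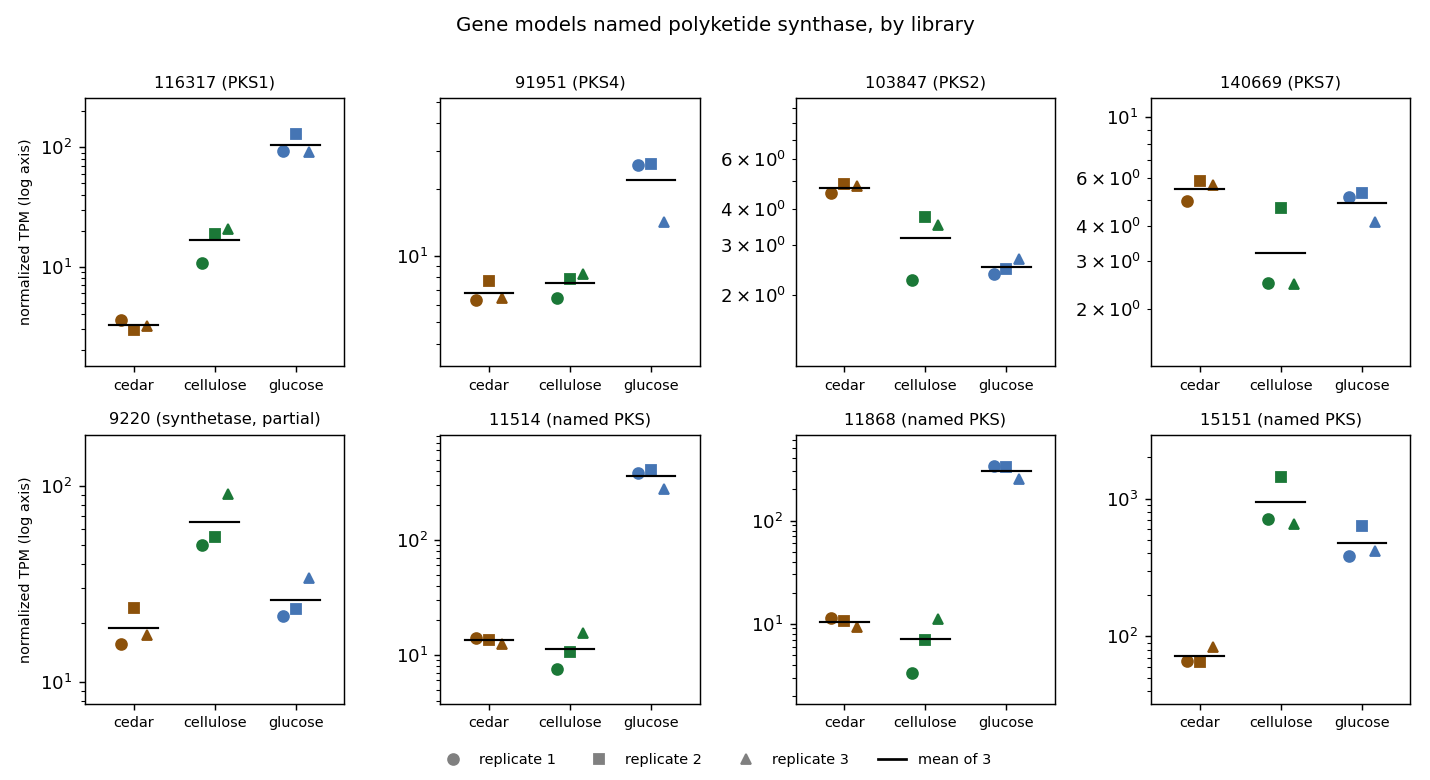
Normalized TPM (log axis, a separate range in each panel) of the 4 listed PKS genes and the 4 detected gene models with a PKS name, in the cedar, cellulose and glucose libraries, with a line at each mean. Genes Glotr_116317, Glotr_91951, Glotr_11514 and Glotr_11868 are highest on glucose in all 3 libraries, whereas Glotr_15151 is low on cedar only and Glotr_9220 is highest on cellulose.

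Few genes of the pathway that supplies the TS substrate could be found by name, since 1734 of the 11846 gene models have an annotation here. The 2 found were Glotr_34218, named farnesyl diphosphate synthase, and Glotr_42633, named phytoene/squalene synthetase. Squalene synthase stands at the branch toward sterols in fungi, but the roles of both gene models are taken from the name alone. Glotr_34218 fell on cellulose to 0.275, 0.488 and 0.792 TPM, against 2.67, 3.11 and 3.22 TPM on glucose (log2 difference −1.81, SE 0.21, limma adjusted p = 0.000676). On cedar it had 1.76, 0.778 and 1.96 TPM and was not called (adjusted p = 0.0201). Glotr_42633 had 7.55 ± 1.85 TPM on cedar, 4.38 ± 0.19 on cellulose and 8.43 ± 0.84 on glucose (SD, n = 3 each) and was not called in any comparison. With limma, 0 of the 2 were called on cedar against glucose (1 had an unadjusted p under 0.05) and 0 on cedar against cellulose (2 had an unadjusted p under 0.05). Neither was called higher on a substrate than on glucose under any of the alternatives run.

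The genome positions of the 8 genes came from the RefSeq annotation of assembly Glotr1_1, which gives start and end but names no scaffold in the table used. Runs of increasing start positions were taken as 1 scaffold each. On that basis 4 of the 6 TS genes shared a scaffold: Glotr_117331 (start 69036, end 70243), Glotr_64172 (327323 to 328799), Glotr_131990 (1165045 to 1166162) and Glotr_79917 (1173876 to 1175221). The last 2 lay 7714 bp apart with 2 gene models between them, and Glotr_117331 and Glotr_64172 lay 257080 bp apart with 58 between them. Genes Glotr_103889 (695144 to 696792) and Glotr_91951 (2779714 to 2787490) shared another run, and Glotr_116237 (1201006 to 1206489) and Glotr_116317 (10485 to 17489) each lay alone.

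The 5 gene models on each side of each of the 8 genes, 68 in all without the 8, were examined next. On cellulose 2 were called higher and 9 lower than on glucose among 58 tested, and on cedar 8 higher and 13 lower among 61. These are 3.45% and 15.5% on cellulose, beside 10.4% and 13.9% of all gene models, and 13.1% and 21.3% on cedar, beside 15.2% and 15.7%. Between the substrates, 8 were higher and 3 lower on cedar than on cellulose, or 13.1% and 4.92%, beside 10.7% and 5.95% of all gene models. With equal totals, the calls were 1 higher and 31 lower on cellulose against glucose, and 27 higher and 1 lower on cedar against cellulose.

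Beside Glotr_64172, the third gene model on one side is Glotr_140224, a cytochrome P450 of the CYP2 class. It is the only P450 named among the 5 gene models on each side, most of which have no name here. The study lists it among P450 genes upregulated on cellulose or cedar. Its rise was thus known beforehand and is described without a test. Glotr_140224 had 493, 541 and 554 TPM on cedar and 733, 608 and 1458 TPM on cellulose, against 10.8, 12.3 and 12.6 TPM on glucose. The log2 differences were 5.42 (SE 0.10) on cedar and 6.13 (SE 0.32) on cellulose. Its direction on cedar was thus the opposite of that of Glotr_64172 itself, which lay below glucose there. In both genes cellulose replicate 3 was the highest library. A further named P450 gene, Glotr_46844, lay outside these 5, 28.0 kb from the start of Glotr_64172. It was called higher on cedar than on glucose (log2 difference 0.99, limma adjusted p = 0.000975). On cellulose it was not called (limma adjusted p = 0.0305).

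Of the gene models directly around Glotr_64172, 2 fell on cedar as the P450 gene Glotr_140224 rose. Neighbours Glotr_64168 and Glotr_79597 fell on cedar against glucose, with log2 differences of −1.42 and −1.27 (limma adjusted p = 3.09e-05 and 0.000233). In 1 fit of all 3 groups, which shares the wide spread of cellulose, their adjusted p was 0.0531 and 0.0295, and the call of Glotr_79597 was also lost under quantile normalization. Neighbour Glotr_111976 had 70.2, 70.3 and 78.2 TPM on cedar, against 83.7, 83.5 and 99.2 TPM on glucose, and was not called. On the side of Glotr_64168, Glotr_122540 and Glotr_95393 fell on both substrates, with log2 differences of −1.62 and −4.01 on cedar and −1.55 and −2.86 on cellulose. In cellulose replicate 3, Glotr_64168 reached 974 TPM, Glotr_111976 reached 619 TPM and Glotr_79597 reached 966 TPM, between 3.33 and 5.24 times the higher of the other 2 cellulose libraries. Neighbours Glotr_122540 and Glotr_140219 did not share this, at 5.53 and 23.6 TPM in replicate 3.

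A similar block preceded Glotr_117331. The 4 gene models before it, Glotr_64097, Glotr_140191, Glotr_131671 and Glotr_131672, had 799, 1051, 706 and 765 TPM in cellulose replicate 3, against 59 to 258 TPM in the other 2 cellulose libraries. Of these only Glotr_131672 was called on cedar against glucose (log2 difference −1.79, limma adjusted p = 0.000535, and 0.0987 in 1 fit of all 3 groups), and its ratio to Glotr_117331 stayed between 0.647 and 1.47 in all 9 libraries. The gene model next to Glotr_117331 on the other side, Glotr_131674, had a different pattern, with 2.06 ± 0.36 TPM on cedar, 0.432 ± 0.14 on cellulose and 22.4 ± 0.94 on glucose (SD, n = 3 each). It fell on both substrates (log2 differences −3.16 and −4.63, limma adjusted p = 2.28e-06 and 4.97e-06) and did not take part in the high values of cellulose replicate 3.

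**Figure D4:**
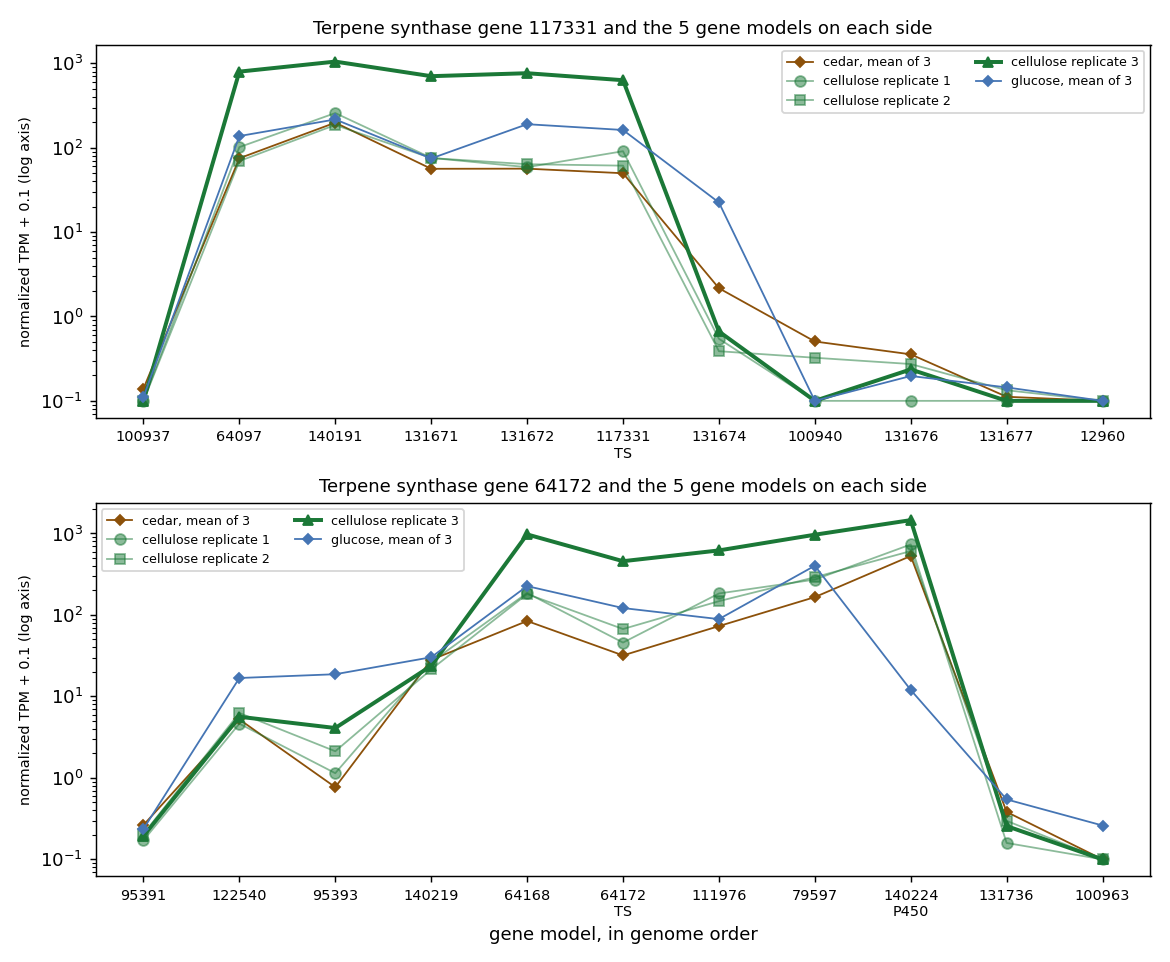
Normalized TPM + 0.1 (log axis) of TS genes Glotr_117331 and Glotr_64172 and of the 5 gene models on each side of them in genome order, as cedar means, single cellulose libraries and glucose means. Cellulose replicate 3 (thick line) stands above the other libraries from Glotr_64097 to Glotr_117331 and from Glotr_64168 to the P450 gene Glotr_140224. At Glotr_140224 it is only 1.99 times the higher of the other 2 cellulose libraries, and at Glotr_95393, outside the block, 1.98 times.

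How far this reached was looked at after the values had been seen. A gene model was counted where cellulose replicate 3 was at least 4 times the higher of the other 2 cellulose libraries, among those that reached 5 TPM on cellulose. Genome-wide this held for 81 of 7536 gene models (1.07%), against 4 for cellulose replicate 1 and 4 for cellulose replicate 2 counted in the same way. On the scaffold of Glotr_64172 and Glotr_117331 it held for 21 of 299 (7.02%), and elsewhere for 60 of 6922 (0.867%). Of the 21, 17, both TS genes among them, lay within a stretch of 353 kb that holds 51 considered gene models. The stretch was not continuous. From −86.3 to −4.6 kb of the start of Glotr_64172, replicate 3 was only 0.476 to 1.60 times the higher of the other 2. Most of the 17 lay before this gap, on the side of Glotr_117331. Neither Glotr_131990 nor Glotr_79917, farther along the same scaffold, was among them, with replicate 3 at 1.45 and 0.936 times the higher of the other 2. No count was tested, because the stretch was drawn around the genes found.

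**Figure D5:**
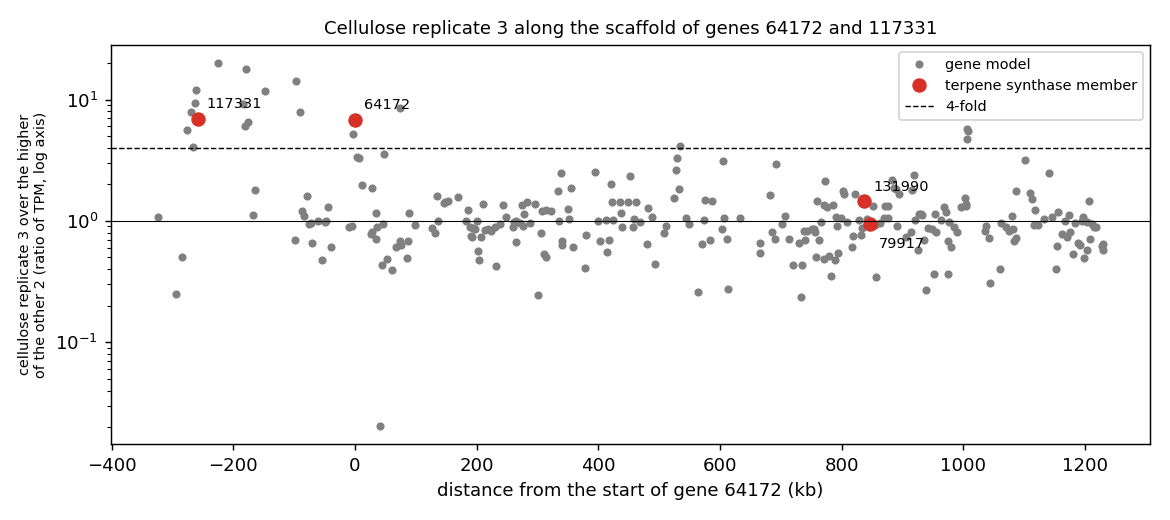
Ratio of TPM in cellulose replicate 3 to the higher of cellulose replicates 1 and 2 (log axis) for each gene model that reached 5 TPM on cellulose, by distance in kb from the start of Glotr_64172 along its scaffold. The 4 TS genes are marked, the dashed line is at 4-fold, and most of the gene models above it lie in the 353 kb around Glotr_117331 and Glotr_64172. Between these 2 genes, from −86.3 to −4.6 kb, the ratios are 0.476 to 1.60.

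The called neighbours of the other TS genes moved in both directions. Beside Glotr_116237, the neighbours Glotr_116236 and Glotr_138887 rose on cedar against glucose (log2 differences 1.42 and 0.99, limma adjusted p = 0.001 and 0.000657), and none of 9 tested was called on cellulose. The call of Glotr_138887 was lost without cedar replicate 1 and with equal totals. The 2 gene models between Glotr_131990 and Glotr_79917 include Glotr_117473, which fell on cedar against glucose and against cellulose (log2 differences −1.24 and −1.27, limma adjusted p = 3.88e-05 and 0.000962, the second call lost with equal totals, at 0.195, under quantile normalization and with the replicate block), the opposite of both TS genes against glucose. Farther out, Glotr_112072 rose on both substrates, with 41.4 ± 2.89 TPM on cedar and 34.8 ± 12.7 TPM on cellulose, against 13.3 ± 0.58 TPM on glucose (SD, n = 3 each; log2 differences 1.61 and 1.30, limma adjusted p = 1.18e-05 and 0.00465). Its call on cellulose was lost with equal totals (adjusted p = 0.525), without cellulose replicate 2 and without glucose replicate 1, 2 or 3. Neighbours Glotr_131986 and Glotr_140390 rose on cedar against glucose (log2 differences 0.90 and 1.66, limma adjusted p = 0.00239 and 0.000829), the first lost without glucose replicate 1. Beside Glotr_103889, the 3 called neighbours Glotr_136729, Glotr_109938 and Glotr_136736 all fell on both substrates, with log2 differences between −3.20 and −1.69 on cedar and between −1.68 and −1.10 on cellulose, whereas Glotr_103889 was higher there. On cellulose, the call of Glotr_109938 was lost without glucose replicate 1 and without glucose replicate 2, and that of Glotr_136729 under quantile normalization.

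Beside PKS1, neighbour Glotr_76867 was, like PKS1, lowest on cedar and highest on glucose. It fell to 34.3, 21.8 and 31.3 TPM on cedar and 102, 204 and 123 TPM on cellulose, against 6521, 6542 and 5273 TPM on glucose. The log2 differences from glucose were −7.71 (SE 0.20, limma adjusted p = 4.24e-07) on cedar and −5.47 (SE 0.29, adjusted p = 2.8e-05) on cellulose, and the difference of cedar from cellulose was −2.24 (limma adjusted p = 0.00214), a call lost without cedar replicate 3 and with the replicate block. It is the third gene model on that side, and the annotation used here gives it no name. Of the 6 neighbours of PKS1, which lies near the end of its run, Glotr_93914 was higher on cedar than on cellulose (log2 difference 1.41, limma adjusted p = 0.00412), a call lost without cedar replicate 1, without cedar replicate 3, without cellulose replicate 1 and with the replicate block. A further one, Glotr_100144, had 0.315, 0.282 and 0.557 TPM on cedar and is listed at 0 in all 6 other libraries.

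Beside PKS4, Glotr_127087 and Glotr_137262, the first 2 gene models on one side, fell on both substrates. Glotr_137262 had 1.41 ± 0.16 TPM on cedar and 0.647 ± 0.11 on cellulose, against 25.4 ± 7.03 on glucose (SD, n = 3 each; log2 differences −3.73 and −4.46, limma adjusted p = 9.64e-06 and 2.01e-05). Glotr_127087 had 4.75 ± 0.58, 2.01 ± 0.38 and 13.7 ± 1.87 TPM on cedar, cellulose and glucose (log2 differences −1.44 and −2.51, limma adjusted p = 0.000105 and 6.5e-05). Of the 10 neighbours of PKS4, 6 were called higher on cedar than on cellulose, namely Glotr_127081, Glotr_127082, Glotr_127087, Glotr_137262, Glotr_127089 and Glotr_36251, named an FAD/NAD(P)-binding protein, with log2 differences between 0.74 and 1.42. Of these, Glotr_127082 was also called higher on cedar than on glucose (0.92, limma adjusted p = 0.0028), a call lost in 5 of the alternatives and without 4 of the libraries in turn. PKS4 itself was not called. Each of the 6 calls between the substrates was lost without cedar replicate 1, without cedar replicate 3, under quantile normalization and with the replicate block.

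The gene models most like each of the 8 over the 9 libraries were found by the root mean square (RMS) difference of log2(TPM + 0.5), each centred on its own mean. For Glotr_64172 they were Glotr_131672, which lies beside Glotr_117331 (RMS 0.312), its own neighbour Glotr_64168 (0.362) and Glotr_77747 (0.37). For Glotr_117331 they were Glotr_41963, named a class I glutamine amidotransferase-like protein (0.304), and its neighbours Glotr_131672 (0.349) and Glotr_64097 (0.35). All of these were also high in cellulose replicate 3, at 4.50 to 15.8 times the higher of the other 2 cellulose libraries. The likeness without that library was not tested. No neighbour appeared among the 3 most alike of the other 6 genes.

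The 3 most like Glotr_116237 were Glotr_109249, Glotr_139616 and Glotr_16750 (RMS 0.307 to 0.471), and those most like Glotr_103889 were Glotr_131650, Glotr_75765 and Glotr_60323 (0.365 to 0.405). Like Glotr_103889, the latter were low in cellulose replicate 3, at 0.095 to 0.287 times the higher of the other 2 cellulose libraries. For Glotr_131990 they were Glotr_33434, Glotr_112869 and Glotr_137127 (0.248 to 0.275), and for Glotr_79917 they were Glotr_115770, Glotr_38545, named a peptidyl-prolyl cis-trans isomerase, and Glotr_17563, named an RNA helicase (0.204 to 0.236). For PKS4 they were Glotr_95150, Glotr_5637 and Glotr_117761 (0.14 to 0.202), and for PKS1 Glotr_92602, Glotr_136258 and Glotr_112041 (0.298 to 0.409). Of these, Glotr_95150 was near the floor, with means of 0.036 TPM on cedar, 0.019 on cellulose and 0.892 on glucose. Its ratio of cellulose to glucose was 0.0218, against 0.341 for PKS4, so its small RMS difference rests on the 0.5 TPM added. The median over all gene models compared ranged from 0.863 for PKS4 to 2.03 for PKS1. Among the pairs of the 8 genes, Glotr_64172 and Glotr_117331 were followed by the neighbouring Glotr_131990 and Glotr_79917 at 0.432 and by Glotr_116237 and Glotr_103889 at 0.716, while the 2 PKS genes stood 1.35 apart.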

How the data were processed

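The authors trimmed the paired-end reads of stranded mRNA libraries, pseudoaligned them to the JGI gene models of G. trabeum with Kallisto 0.44.0 and rescaled the TPM with Sleuth 0.29.0. The deposited signal values are these normalized TPM, 1 column for each library, and none was left unused. They had been taken for TPM with a fixed total when the tests were laid out; the same test was kept. Kallisto divides reads shared by similar gene models by estimation, so values of near-identical genes are uncertain.

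Each pair of carbon sources was fitted with limma 3.58.1 in R 4.3.3 (lmFit, eBayes with a mean-variance trend, two-sided) on log2(TPM + 0.5), with Benjamini-Hochberg adjustment. Gene models below 0.1 TPM in more than 3 of the 6 libraries compared were left out. Calls needed an adjusted p below 0.01 and a difference of 2-fold or more between the mean TPM. The script was tested on simulated data. The 8 genes, the lists and the tests were chosen with earlier results of these data known. Named besides the 8 were the other listed synthase genes, each PKS-named, precursor or neighbouring gene model called in a comparison, and the 3 most alike gene models of each. Neighbours came from RefSeq, which matched 11422 of 11846 gene models by locus tag. Alternatives were the added value, the filter, the scaling, the trend, 1 fit of all groups, a replicate block, a threshold of 0.05, 10 neighbours on each side, and leaving out each library. Tables used Python 3.11.15 and pandas 2.3.3, and plots matplotlib 3.10.9.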

Additional observations from a re-analysis of the deposited data

How the results depend on the processing

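The log2 differences of the 8 genes that were given without a test moved by less than the spread between libraries under the alternatives, with 2 exceptions. Scaling to equal totals moved the difference of cellulose from glucose to 2.81 for Glotr_116237, 0.90 for Glotr_131990, 0.61 for Glotr_79917, −2.55 for Glotr_91951 and −3.78 for Glotr_116317, each with its sign kept, and that of cedar from cellulose to 0.16 for Glotr_79917, where the median of all gene models moved from 0.05 to 0.91. Quantile normalization moved that last value to −1.08. For Glotr_64172 and Glotr_117331 the spread on cellulose is itself wide, because replicate 3 stands apart, so their moves did not count as exceptions. Their differences of cellulose from glucose, −0.11 and −0.06, became −1.12 and −1.09 without cellulose replicate 3. With equal totals they became −1.27 and −1.22.

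Between cedar and cellulose, Glotr_116237 passed the threshold of 0.05 (−1.55, adjusted p = 0.0415). Leaving out single libraries gave −1.99 to −1.01 for Glotr_116237, −1.12 to −0.33 for Glotr_131990, −0.24 to −0.07 for Glotr_91951 and −2.44 to −1.99 for Glotr_116317. With the replicate block, the difference of Glotr_116317 kept its value of −2.16 but had an adjusted p of 0.0104, above the threshold of 0.01.

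The correlations of deviations between same-numbered libraries ranged from −0.389 to 0.182, and 3 of the 9 exceeded 0.1. Of the 9 libraries, 2 deviated most like one of their own number. As each group had 3 libraries, these values cannot settle whether the replicate numbers of the titles pair the libraries. With the replicate block, the calls between cedar and cellulose fell to 0 of the other listed genes, 1 of the PKS-named models and 1 of the neighbours, in place of 1, 2 and 11, and Glotr_116237 had an adjusted p of 0.0562.

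Counts of calls are small and moved as follows. For cellulose against glucose, quantile normalization left 1 of the 6 other listed genes, equal totals gave 2 precursor genes and 32 neighbours in place of 1 and 11, and 10 gene models on each side gave 26 neighbours among 115 tested. Leaving out single libraries gave 1 to 2 precursor genes (2 without glucose replicate 3) and 9 to 17 neighbours (17 without cellulose replicate 3). For cedar against glucose, equal totals, quantile normalization and the threshold of 0.05 each gave 1 precursor gene in place of 0, 10 gene models on each side gave 43 neighbours among 121 tested in place of 21, and leaving out single libraries gave 0 to 1 other listed genes (1 without cedar replicate 2). For cedar against cellulose, equal totals gave 4 other listed genes, 2 precursor genes and 28 neighbours, quantile normalization 0 other listed genes and 5 neighbours, the threshold of 0.05 gave 1 precursor gene and 17 neighbours, and 10 gene models on each side gave 19 neighbours among 117 tested. Leaving out single libraries gave 0 to 2 other listed genes (0 without cedar replicate 1, 2 or 3, 2 without cellulose replicate 2), 1 to 2 PKS-named models (1 without cedar replicate 1 or 3 or cellulose replicate 2) and 2 to 13 neighbours (2, 3 and 7 without cedar replicate 3, cedar replicate 1 and cellulose replicate 1). The causes were not tested, other than that more neighbours or a laxer threshold allow more calls.

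A search for sequence relatives by blastp, at either limit, was not run, and relatives were taken by name. With 3 libraries a group and no read counts, low genes such as Glotr_131990, Glotr_79917 and Glotr_34218 rest on an unknown number of reads.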
